A study of Rattus norvegicus with 48 samples.

Results

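Elastic fibre genes code for the proteins of the extensible part of the extracellular matrix. Described here are 10 of them, Eln, Fbn1, Fbn2, Fbln1, Fbln2, Fbln5, Efemp1, Efemp2, Emilin1 and Mfap5, taken by symbol from a list and not by their values. All 10 were among the 32883 genes of each of the deposited count tables, 1 for the posterior eye and 1 for the retina. The animals were 24 female Long-Evans rats, an outbred pigmented strain, and each gave 1 posterior eye library and 1 retina library. Young rats had an age of 3 to 4 months. The older rats, middle-aged in the labels, had one of 9 to 10 months and are called aged. Within each age, 6 rats had their ovaries removed (ovariectomy, OVX), which takes away the main source of circulating oestrogen, and 6 had a sham operation. The groups are called young sham (animals 1 to 6), young OVX (7 to 12), aged sham (13 to 18) and aged OVX (19 to 24). The interval between surgery and tissue collection is not given in the sources used here. The design asks how age and loss of the ovaries change gene expression in each tissue.

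An elastic fibre has a core of crosslinked elastin on a scaffold of microfibrils. Eln codes for tropoelastin, the soluble monomer of the core, and fibrillin-1 and fibrillin-2, from Fbn1 and Fbn2, form the microfibrils, to which the glycoprotein from Mfap5 binds. Emilin1 sits at the interface of elastin and microfibrils. The fibulins join the parts. Fibulin-5, from Fbln5, and fibulin-4, from Efemp2, bring tropoelastin together with the enzymes that crosslink it, fibulin-1 and fibulin-2, from Fbln1 and Fbln2, are found in elastic fibres and basement membranes, and fibulin-3, from Efemp1, is mutated in an inherited macular dystrophy. In the back of the eye elastic fibres lie in Bruch's membrane under the pigment epithelium, in the sclera and in the walls of vessels.

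Posterior eye libraries held between 11470945 and 22971367 counts, and retina libraries between 12916146 and 30737547. Levels are counts per 1000000 (CPM) on library totals scaled by the TMM method, and are compared between groups of 1 gene, not between genes, since longer transcripts collect more reads. A gene was called when its adjusted p in edgeR's quasi-likelihood test was under 0.05, adjusted by the Benjamini-Hochberg method over all genes tested in that tissue. The labelled tissues carried their markers. The summed level of 12 fibroblast markers was 5257 to 11076 CPM in posterior eyes against 300.1 to 399.8 CPM in retinas, and that of 9 rod photoreceptor markers was 81414 to 98687 CPM in retinas. Rod markers were also present in every posterior eye library, at 84.2 to 31981 CPM, and lens markers reached 2159 CPM there and 43452 CPM in the retina.

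All 10 genes differed between the tissues, and 9 of them were higher in the posterior eye. In a fit over all 48 libraries 93% of all genes tested were called for tissue, 47.8% higher and 45.2% lower in the posterior eye, so a call by itself is near the background. The median log2 fold change of all genes was 0.05. In bulk tissue, fewer cells of a type and less RNA per cell cannot be told apart.

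Elastin was among the genes with the higher posterior eye level. Eln averaged 65.9 ± 17.9 CPM (SD, n = 24) in posterior eyes against 16.0 ± 1.59 CPM in retinas on the scale of that fit, a log2 fold change of 2.01 ± 0.06 (SE), and was higher in the posterior eye of 24 of 24 animals. The lowest posterior eye value, 40.9 CPM, lay above the highest retina value, 18.8 CPM, and the share of all genes that separate in this way was not counted.

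The microfibril genes differed from each other. Mfap5 averaged 105 ± 24.0 CPM in the posterior eye, while the retina held 26 of its counts in all 24 libraries together, against 42961 in the posterior eye. Its fitted log2 fold change of 10.80 ± 0.19 rests on those 26 counts, and it was too low to be tested within the retina. Fbn1 was higher in the posterior eye by 0.58 ± 0.11 on the log2 scale, at 173 ± 39.3 against 116 ± 37.4 CPM, in 21 of 24 animals. Fbn2 went the other way, with 5.89 ± 2.06 CPM in posterior eyes against 7.09 ± 1.60 in retinas, and was higher in the posterior eye of 5 of 24 animals. Its log2 fold change was -0.28 ± 0.11 with an adjusted p of 0.0191 in edgeR, and the ranges of the tissues overlapped. Fibrillin-2 is the fibrillin best known from development.

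Mfap5 and Fbn2 stand at opposite ends of this tissue comparison, so the 250 bases upstream of their annotated starts are shown. Both come from RefSeq on the build GRCr8, read 5′ to 3′ on the strand of the gene, with each CG pair in capitals.
Mfap5, chr4:157399669-157399918, plus strand: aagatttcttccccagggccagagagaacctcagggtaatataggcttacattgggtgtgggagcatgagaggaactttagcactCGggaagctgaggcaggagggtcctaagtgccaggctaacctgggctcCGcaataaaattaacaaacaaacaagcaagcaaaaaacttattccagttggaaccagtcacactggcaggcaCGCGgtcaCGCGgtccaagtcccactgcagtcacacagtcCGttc
Fbn2, chr18:53901993-53902242, minus strand: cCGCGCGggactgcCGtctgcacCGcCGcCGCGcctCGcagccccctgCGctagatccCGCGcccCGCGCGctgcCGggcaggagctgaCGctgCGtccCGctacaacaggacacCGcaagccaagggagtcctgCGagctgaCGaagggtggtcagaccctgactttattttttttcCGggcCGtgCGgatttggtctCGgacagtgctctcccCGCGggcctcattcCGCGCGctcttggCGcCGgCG
The Mfap5 window held 7 CG pairs at 51.6% GC, and the Fbn2 window 34 at 70% GC. The median of the 33469 upstream windows of the same length was 5 CG pairs and 51.2% GC, and 97.0% of them had fewer CG pairs than Fbn2, against 54.8% for Mfap5. Such windows were at hand for 7 of the 10 genes. An oestrogen response half-site, GGTCA on either strand, matched in 3 of the 7 (Efemp2, Fbn2 and Mfap5) and in 35.4% of all windows. TATAAA on either strand matched in 0 of the 7 and in 12.9% of all windows. A match is a description of letters, and no match says only that these letters are not in these windows.

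The fibulins and Emilin1 were all higher in the posterior eye. Fbln5 averaged 99.1 ± 14.9 CPM there and 2.03 ± 0.80 CPM in the retina, a log2 fold change of 5.64 ± 0.11, and its retina libraries held 11 to 83 counts each. Fbln2, Efemp2 and Efemp1 had log2 fold changes of 1.94 ± 0.11, 1.37 ± 0.06 and 1.24 ± 0.08, and Emilin1 one of 0.86 ± 0.06. All 4 were higher in the posterior eye of 24 of 24 animals. The smallest of these differences was that of Fbln1, at 0.37 ± 0.14 with an adjusted p of 0.0102 in edgeR, and it was higher in the posterior eye of 17 of 24 animals. Levels of Fbln1 lay between 55.1 and 240.1 CPM in posterior eyes and between 47.6 and 262.4 CPM in retinas.

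**Figure D1:**
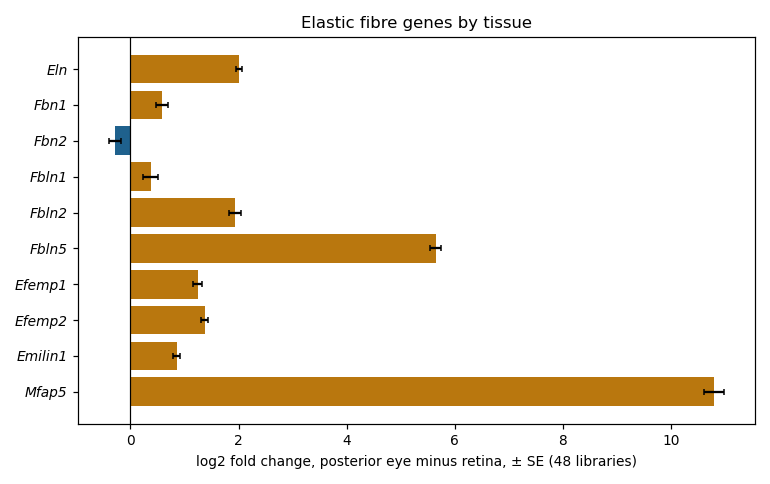
Horizontal bars give the log2 fold change of each elastic fibre gene, posterior eye minus retina, from a fit over 48 libraries, with the SE as error bars. Of the 10 bars, 9 point towards the posterior eye, led by Mfap5 at 10.80 and Fbln5 at 5.64, and that of Fbn2 points towards the retina at -0.28.

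With age, elastin RNA fell in the posterior eye. Over both surgeries, Eln averaged 75.9 ± 13.7 CPM in the 12 young animals and 49.8 ± 7.39 CPM in the 12 aged animals, a mean that fell by 34.4%. Its log2 fold change was -0.60 ± 0.10 with an adjusted p of 0.0175 in edgeR's quasi-likelihood test. It was the 1 elastic fibre gene called of 10 tested, where 0.0488% of all genes tested, 8 in number, were called, 0.0366% as lower. All 12 aged animals lay below the median of the young.

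The separate animals show where the difference lay. Young sham animals 1 to 6 had 94.9, 64.8, 92.1, 76.5, 77.2 and 81.5 CPM of Eln. Aged sham animals 13 to 18 had 60.6, 47.8, 56.1, 43.4, 47.4 and 39.996 CPM. Every aged sham value was under every young sham value. How many of all genes tested separate in this way was not counted, so the separation has no background to be read against. Young OVX animals 7 to 12 had 76.7, 77.5, 86.3, 43.2, 73.9 and 66.7 CPM, and aged OVX animals 19 to 24 had 46.5, 61.1, 46.9, 40.5, 57.8 and 49.6 CPM. The OVX groups overlapped through animal 10 of the young OVX group alone, whose 43.2 CPM was the lowest young value. The step was -0.72 ± 0.14 within sham (adjusted p = 0.176) and -0.49 ± 0.14 within OVX (adjusted p = 0.297), and neither passed edgeR's threshold by itself, where 0% of all genes did in either contrast. DESeq2 called the step within sham, at -0.71 with an adjusted p of 0.00777. The interaction of surgery and age was 0.23 ± 0.20 with an adjusted p of 1.00 in edgeR.

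**Figure D2:**
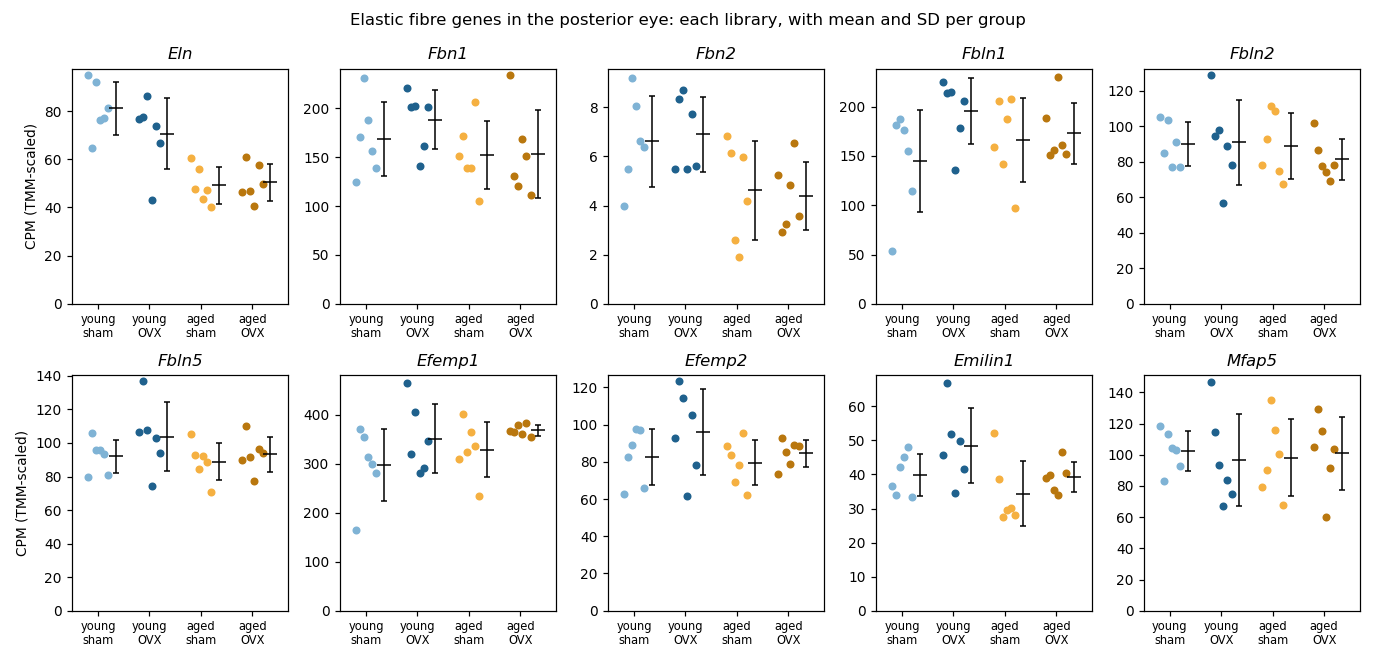
Each point is the level of a gene in 1 posterior eye library (CPM on TMM-scaled totals, axes from 0), with the mean and SD of each group of 6 beside it. For Eln the 12 aged libraries sit between 39.996 and 61.1 CPM, and the young libraries between 43.2 and 94.9 CPM.

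Markers of other cells in the posterior eye are given beside this result. Of 12 fibroblast markers 11 lay below 0 in aged animals, with a median log2 fold change of -0.11, and 1 was called, Col1a1, which codes for a type I collagen chain, at -1.01 ± 0.17 with an adjusted p of 0.0175 in edgeR. Their summed level was 7098 to 9927 CPM in young sham, 6057 to 11076 in young OVX, 5257 to 7691 in aged sham and 5912 to 9381 in aged OVX, with no marker at 0 in any group. All 7 lens markers lay below 0, with a median of -1.98, 6 had an unadjusted p under 0.05 and 0 were called. Their summed level was 108 to 1393 CPM in young sham, 50.7 to 2159 in young OVX, 35.8 to 392 in aged sham and 59.2 to 308 in aged OVX, with no marker at 0 in any group. Smooth muscle and pericyte markers, which cells of vessel walls share, were below 0 for 6 of 10, with a median of -0.03. Endothelial markers lay below 0 for 6 of 7 (median -0.21, 3 at an unadjusted p under 0.05), Schwann cell and myelin markers for 6 of 6 (-0.81, 2) and melanocyte markers for 6 of 6 (-0.28, 0). Adipocyte markers lay above 0 for 5 of 6 (0.39, 1), and 0 markers of these 4 lists were called. Rod markers lay below 0 for 9 of 9 (median -0.36) and sebaceous gland markers for 7 of 7 (-0.64). Pigment epithelium markers did so for 7 of 9 (-0.10) and Muller glia and astrocyte markers for 5 of 6 (-0.27). Skeletal muscle markers, whose summed level was 6512 to 30191 CPM, lay above 0 for 4 of 5 (0.05). In each of these further lists 0 markers were called and 0 had an unadjusted p under 0.05.

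The Eln call was lost with some of these levels in the fit. With the fibroblast marker level as a covariate, the log2 fold change of Eln was -0.40 (adjusted p = 0.138 in edgeR), with the lens marker level -0.43 (0.357), and with the pigment epithelium marker level -0.58 (0.0563). It stayed called with the rod marker level (-0.62, adjusted p = 0.00682) and with the smooth muscle and pericyte level (-0.59, 0.0385). Leaving out 1 library at a time kept the call in 21 of 24 fits and lost it without animals 14 or 17 (aged sham) or 21 (aged OVX), with adjusted p up to 0.0554 and log2 fold changes from -0.64 to -0.56. The fibroblast list includes matrix genes such as Col1a1, Col3a1, Dcn and Lum. A fit with its level therefore cannot separate the number of fibroblasts from their matrix expression. The lens and smooth muscle covariates were added after the data were seen. The part of these cells in the Eln result was not tested.

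None of the other 9 genes was called with age in the posterior eye. Of the 10 genes, 7 had a log2 fold change below 0, with a median of -0.11 against -0.01 over all genes, and 3 had an unadjusted p under 0.05. Those were Eln, Fbn2 and Emilin1. Of all 16401 genes tested, 45.2% lay above 0 and 1459 had such a p. Fbn2, at low counts, averaged 6.76 ± 1.63 CPM in young and 4.51 ± 1.66 CPM in aged animals (n = 12 each), with a log2 fold change of -0.59 ± 0.20 and an adjusted p of 0.349 in edgeR. Its 2 lowest libraries were aged sham, at 1.92 and 2.60 CPM, 10 of 12 aged animals lay below the young median, and the ranges overlapped.

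Emilin1 and Fbn1 had smaller differences. Emilin1 averaged 44.1 ± 9.59 CPM in young and 36.8 ± 7.58 CPM in aged animals, a log2 fold change of -0.26 ± 0.11 (adjusted p = 0.505). Fbn1 averaged 178 ± 34.3 and 153 ± 38.2 CPM, a log2 fold change of -0.22 ± 0.13 (adjusted p = 0.665). For both, 10 of 12 aged animals lay below the young median and the ranges overlapped. With the fibroblast marker level as a covariate the log2 fold change was -0.01 for Emilin1, -0.07 for Fbn1 and -0.36 for Fbn2. Efemp2 averaged 89.2 ± 19.9 CPM in young and 82.1 ± 9.99 CPM in aged animals, with 10 of 12 aged animals below the young median, and Fbln2 90.3 ± 18.2 and 85.0 ± 15.1 CPM, with 8 of 12. Mfap5 averaged 99.6 ± 21.9 CPM in young and 99.6 ± 23.0 CPM in aged animals, Fbln1 170 ± 49.4 and 170 ± 35.8 CPM, and Fbln5 97.9 ± 16.5 and 91.1 ± 10.6 CPM. Efemp1 lay above the young median in 10 of 12 aged animals, at 324 ± 74.5 and 348 ± 44.1 CPM, and its ranges overlapped.

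Other genes that act around elastic fibres were read from 6 lists of 65 genes. The lists hold microfibril and elastic fibre partners, crosslinking enzymes, proteases, protease inhibitors, integrin subunits and TGF-beta genes. Of the 65, 61 were in the tables and 57 were tested in the posterior eye. With age, 44 of the 57 lay below 0, 13 had an unadjusted p under 0.05 and 0 were called. Of all 16401 genes tested, 45.2% lay above 0, 1459 had such a p and 0.0488% were called. The enzymes that crosslink elastin and collagen and their copper supply had the lowest median of the 6 lists, -0.35, with 5 of 6 below 0 and 5 of 6 at an unadjusted p under 0.05. Lox, the founding lysyl oxidase, averaged 55.1 ± 14.2 CPM in young sham, 52.8 ± 9.73 in young OVX, 36.0 ± 11.1 in aged sham and 37.3 ± 8.55 in aged OVX (n = 6 each). Its log2 fold change with age was -0.56 ± 0.14 (adjusted p = 0.214 in edgeR, 0.0301 in DESeq2), and that of Loxl2, a related oxidase, was -0.41 ± 0.09 (adjusted p = 0.162 in edgeR, 0.0149 in DESeq2). With the fibroblast marker level as a covariate these were -0.26 for Lox and -0.24 for Loxl2. Lox and Loxl2 were chosen for naming after their values were seen. Of 21 microfibril and elastic fibre partners 18 were below 0 with a median of -0.10, and of 8 elastin-degrading proteases 7 were below 0 with a median of -0.12. Protease inhibitors had a median of 0.00, with 4 of 7 above 0. Integrin subunits that bind such matrix proteins had 7 of 9 below 0, and ligands and receptors of TGF-beta, a growth factor that microfibrils hold, 4 of 6.

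After ovariectomy in young animals, no elastic fibre gene was called in the posterior eye, where 0.0061% of all genes, 1 gene, was called. DESeq2 and limma-voom called 0 of the 10 as well, and 0 of them had an unadjusted p under 0.05. Of the 10 log2 fold changes 8 were above 0, and their median was 0.17 against -0.01 over all genes. Of all 16401 genes tested, 47.2% were above 0 and 1023 had an unadjusted p under 0.05. Markers of several cell types differed in the same contrast, with 0 called. Melanocyte markers were above 0 for 6 of 6 (median 0.48, 2 at an unadjusted p under 0.05), fibroblast markers for 9 of 12 (0.20, 1), lens markers for 7 of 7 (0.80, 3) and Schwann cell and myelin markers for 6 of 6 (1.17, 1), while sebaceous gland markers were above 0 for 0 of 7 (-2.03, 6). Rod markers were below 0 for 9 of 9 (median -0.36), and endothelial markers above 0 for 7 of 7 (0.18). Pigment epithelium markers were below 0 for 8 of 9 (-0.06), and Muller glia and astrocyte markers above 0 for 5 of 6 (0.20). In each of these further lists 0 had an unadjusted p under 0.05. The summed rod level had a median of 11211 CPM in young sham (679 to 29940) and 2792 in young OVX (84.2 to 31981). The part of these cell types in the values was not tested. Fbln1 had the highest value, 0.43 ± 0.23 (adjusted p = 0.855), with 145 ± 51.96 CPM in young sham and 196 ± 33.6 CPM in young OVX (n = 6 each). Animal 1 of the young sham group, at 53.8 CPM, had the lowest Fbln1 level of all 24 libraries, and the groups overlapped. Without animal 1 the Fbln1 value was 0.27.

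Emilin1 and Efemp1 followed. Emilin1 was at 39.8 ± 6.09 CPM in young sham and 48.4 ± 11.0 CPM in young OVX, a log2 fold change of 0.28 ± 0.16, and Efemp1 at 297 ± 73.3 and 351 ± 71.3 CPM, one of 0.24 ± 0.16. Animal 1 was again the lowest of the 24 libraries for Efemp1, at 164 CPM, and without it the Efemp1 value was 0.12. Without animal 8 of the young OVX group the Emilin1 value was 0.17. With the fibroblast marker level as a covariate Emilin1 was at 0.14 and Efemp1 at 0.13. Eln had the lowest value of the 10, -0.20 ± 0.14 (adjusted p = 0.908), with 81.2 ± 11.1 CPM in young sham and 70.7 ± 14.9 CPM in young OVX. Without animal 10 of the young OVX group, the Eln value was -0.08.

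In aged animals 8 of 10 genes were above 0 after ovariectomy, against 51.0% of all genes, with a median of 0.05. Of the 10, 0 were called, where 0% of all genes were. Eln was level there, at 49.2 ± 7.77 CPM in aged sham and 50.4 ± 7.68 CPM in aged OVX, a log2 fold change of 0.03 ± 0.14 whose sign turned in some alternatives. Over both ages Emilin1, at 0.24 ± 0.11 (adjusted p = 0.855), was the 1 gene of the 10 with an unadjusted p under 0.05, ahead of Efemp1 at 0.20 ± 0.11 (adjusted p = 0.909). Such a p was reached by 938 of all 16401 genes, and 0% were called. The interaction of surgery and age lay below 0 for 8 of 10 genes, with a median of -0.12, and 0 were called, where 0% of all genes were. It was -0.37 ± 0.32 for Fbln1, and -0.23 without animal 1. Among the 21 partners of microfibrils and elastic fibres, 18 were above 0 after ovariectomy in young animals with a median of 0.23, 7 had an unadjusted p under 0.05 and 0 were called. In that contrast 1023 of all 16401 genes had such a p, and 0.0061% were called.

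**Figure D3:**
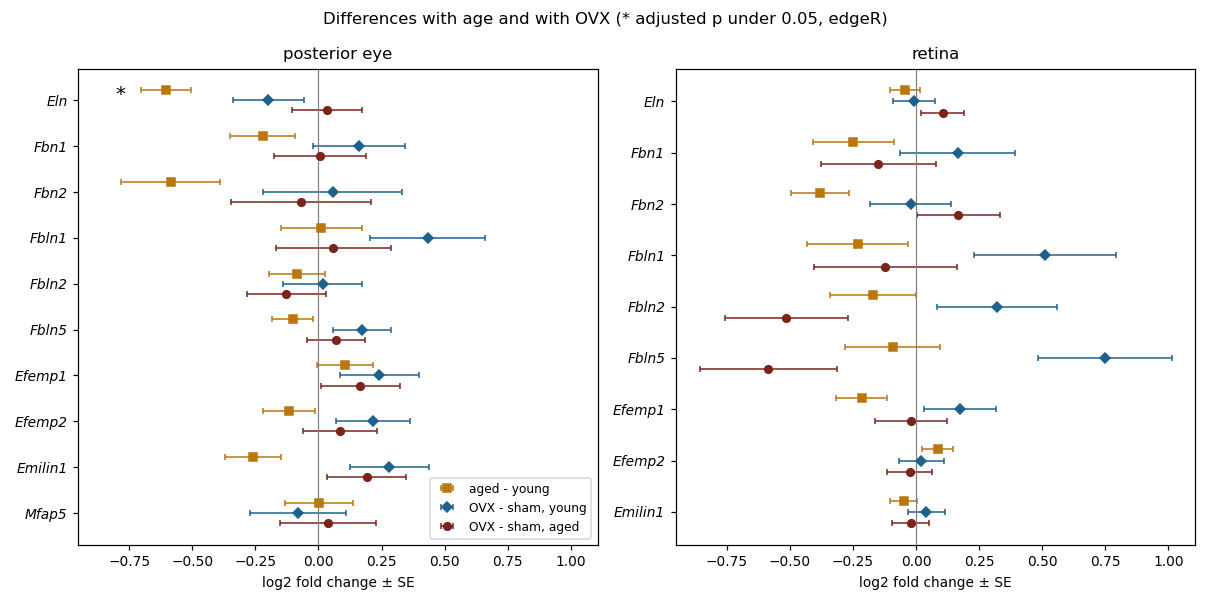
Symbols give the log2 fold change and SE of each gene for age over both surgeries (squares), for OVX in young animals (diamonds) and for OVX in aged animals (circles), with the posterior eye on the left and the retina on the right. The star marks the 1 call, Eln with age in the posterior eye at -0.60, and in the retina the symbols of Fbln5 after OVX lie apart, at 0.75 in young and -0.59 in aged animals.

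In the retina none of the 9 genes tested was called with age, where 0.736% of all genes, 114 in number, were. Of the 9, 8 lay below 0, with a median log2 fold change of -0.17 against 0.00 over all genes, and 2 had an unadjusted p under 0.05. Of all 15481 genes tested, 49.7% lay above 0 and 1997 had such a p. Eln, which fell with age in the posterior eye, averaged 17.0 ± 1.31 CPM in young and 16.5 ± 2.01 CPM in aged retinas (n = 12 each), which is -0.05 ± 0.06 on the log2 scale (adjusted p = 0.841). The age effect on Eln in the posterior eye minus that in the retina was -0.56 ± 0.12 with an adjusted p of 0.0708 in the edgeR fit over 48 libraries, so the difference between the tissues did not pass the threshold. There 0 of 10 genes were called, where 0.035% of all genes were. With the animal as a block the same value was -0.55 ± 0.12 and its adjusted p 0.302. This contrast was added after the data were seen. For the effect of OVX, 0 of 10 genes were called as different between the tissues, where 0.00583% of all genes were. The smallest adjusted p in edgeR, 0.994, was that of Emilin1, at 0.24 ± 0.12. The lack of a call does not show that the effects were alike.

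Fbn2 had a lower mean in aged animals in both tissues, without a call in edgeR. Its retina values in young sham animals 1 to 6 were 6.83, 7.52, 9.55, 10.1, 8.07 and 8.64 CPM, and in young OVX animals 7 to 12 they were 6.50, 9.78, 7.28, 8.86, 9.04 and 8.67 CPM. Aged sham animals 13 to 18 had 7.90, 6.48, 3.23, 5.60, 5.48 and 7.70 CPM, and aged OVX animals 19 to 24 had 8.17, 5.21, 6.83, 5.84, 5.98 and 8.66 CPM. All 12 aged retinas lay under the young median, and the ranges overlapped. The log2 fold change was -0.38 ± 0.12 with an adjusted p of 0.116 in edgeR, and DESeq2 called it, at -0.38 with an adjusted p of 0.0477. By surgery it was -0.48 ± 0.16 within sham (adjusted p = 0.282) and -0.29 ± 0.16 within OVX (adjusted p = 0.624). Efemp1 averaged 168 ± 30.7 CPM in young and 145 ± 27.1 CPM in aged retinas, a log2 fold change of -0.22 ± 0.10 (adjusted p = 0.360), and Fbn1 132 ± 49.8 and 111 ± 22.3 CPM, one of -0.25 ± 0.16 (adjusted p = 0.559). Without animal 4 of the young sham group the Fbn1 value was -0.10, and with the lens marker level as a covariate Efemp1 was at -0.13 and Fbn1 at -0.13.

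Of the 52 listed genes tested in the retina, 1 was called with age, where 0.736% of all genes were. Mfap2, whose product binds fibrillins much as that of Mfap5 does, averaged 34.6 ± 6.51 CPM in young sham, 40.7 ± 3.81 in young OVX, 28.8 ± 3.39 in aged sham and 30.3 ± 3.96 in aged OVX (n = 6 each). Its log2 fold change was -0.35 ± 0.07 with an adjusted p of 0.0251 in edgeR. The call was lost with the fibroblast (-0.31, adjusted p = 0.114), the smooth muscle and pericyte (-0.30, 0.131) and the lens marker level (-0.25, 0.174) as a covariate, and without animal 6 of the young sham group (-0.31, 0.0504). All 7 lens markers lay below 0 with age in the retina too, with a median of -1.26, 7 had an unadjusted p under 0.05 and 0 were called. Their summed level was 3844 to 43452 CPM in young sham, 10669 to 42986 in young OVX, 2462 to 18827 in aged sham and 3205 to 25107 in aged OVX, with no marker at 0 in any group. Fibroblast markers lay below 0 for 6 of 8 (median -0.23, 4 at an unadjusted p under 0.05). Skeletal muscle markers did so for 4 of 4 (-1.21, 4) and pigment epithelium markers for 7 of 9 (-0.23, 1). Smooth muscle and pericyte markers lay above 0 for 8 of 9 (0.11, 1). In these lists 0 were called. Endothelial markers lay below 0 for 4 of 7 (-0.01), and 2 of the 7 were called. The part of these cells in the Mfap2 result was not tested.

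After ovariectomy, Fbln5 had values of opposite sign in young and aged retinas, without a call. Young sham animals 1 to 6 had 2.09, 1.49, 0.61, 1.35, 2.64 and 1.70 CPM of Fbln5, and young OVX animals 7 to 12 had 3.07, 3.38, 2.64, 2.73, 2.44 and 2.32 CPM. Aged sham animals 13 to 18 had 1.69, 1.24, 2.34, 4.45, 2.22 and 2.84 CPM, and aged OVX animals 19 to 24 had 1.37, 2.13, 1.34, 1.38, 2.02 and 1.61 CPM. Sham and OVX values overlapped at each age, while the young OVX animals, from 2.32 to 3.38 CPM, lay above all aged OVX animals, from 1.34 to 2.13 CPM. The share of all retina genes that separate in this way was not counted. The log2 fold change after OVX was 0.75 ± 0.26 in young (adjusted p = 0.266) and -0.59 ± 0.27 in aged animals (adjusted p = 0.750), and the interaction was -1.34 ± 0.38 (adjusted p = 0.455). In these 3 contrasts edgeR called 0 of the 9 genes, where 0.0194%, 0.00646% and 0.0452% of all genes were called. Aged minus young was -0.76 ± 0.27 within OVX (adjusted p = 0.347) and 0.57 ± 0.27 within sham (adjusted p = 0.442), where 0.0711% and 0.0388% of all genes were called and 0 of the 9. Without animal 16 of the aged sham group, the highest library, the value for OVX in aged animals was -0.34 and that for age within sham 0.32.

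Pigment epithelium and melanocyte markers were, like Fbln5, higher on average in young OVX than in young sham retinas and lower in aged OVX than in aged sham retinas. The mean log2 level of the 9 markers was 4.59 ± 0.29 in young sham, 5.15 ± 0.25 in young OVX, 5.07 ± 0.42 in aged sham and 4.29 ± 0.23 in aged OVX, and their summed level 635 to 844, 662 to 918, 760 to 1173 and 577 to 643 CPM, with no marker at 0 in any group. Their interaction of surgery and age was below 0 for 8 of 9 markers, with a median of -1.85, and 3 were called. The mean log2 level of 6 melanocyte markers was 1.76 ± 0.48, 2.51 ± 0.46, 2.15 ± 0.40 and 1.88 ± 0.33 in the same order, with 6 of 6 below 0 for the interaction, a median of -1.11, 4 at an unadjusted p under 0.05 and 0 called. For the interaction 962 of all 15481 genes had such a p, and 0.0452% were called. When the mean level of the pigment epithelium markers entered the fit, the Fbln5 values were 0.20 for OVX in young animals and 0.05 for age within sham, and turned to 0.30 for OVX in aged animals, 0.10 for the interaction and 0.15 for aged minus young within OVX. Within groups, over 24 retinas, Fbln5 and that level had r = 0.66 and rho = 0.54, with adjusted permutation p of 0.119 and 0.232. The part of these cells in the Fbln5 values was not tested.

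The basement membrane fibulins had the same signs as Fbln5 in the retina, and so did Fbn1, Efemp1, Efemp2 and Emilin1, most of them near 0. After OVX in young and aged animals, Fbn1 was at 0.17 ± 0.23 and -0.15 ± 0.23, and Efemp1 at 0.17 ± 0.14 and -0.02 ± 0.14. Efemp2 was at 0.02 ± 0.09 and -0.03 ± 0.09, and Emilin1 at 0.04 ± 0.07 and -0.02 ± 0.07. Apart from Efemp1 in young animals, these values lay within 1 SE of 0, so their signs carry little. Fbln1 in aged animals did too, at -0.12 ± 0.28. After OVX, 7 of the 9 genes were above 0 in young animals, with a median of 0.17, where 49.7% of all genes were. In aged animals 7 of the 9 were below 0, with a median of -0.03, where 49.8% of all genes were above 0. Fbln2 averaged 23.8 ± 8.83 CPM in young sham, 29.8 ± 8.13 in young OVX, 28.2 ± 8.44 in aged sham and 19.9 ± 7.51 in aged OVX (n = 6 each). Its log2 fold change after OVX was 0.32 ± 0.24 in young (adjusted p = 0.643) and -0.51 ± 0.24 in aged animals (adjusted p = 0.766), with an interaction of -0.83 ± 0.34 (adjusted p = 0.742). The value in young animals was 0.17 without animal 8 of the young OVX group and 0.52 without animal 4 of the young sham group. Fbln1 averaged 130 ± 68.3, 185 ± 53.1, 138 ± 27.9 and 127 ± 46.9 CPM in the same order of groups. It was at 0.51 ± 0.28 after OVX in young animals (adjusted p = 0.500), with an interaction of -0.63 ± 0.40 (adjusted p = 0.826), and without animal 4 the value in young animals was 0.77. Groups overlapped in each of these comparisons. Over both ages, 7 of 9 genes were above 0 after OVX with a median of 0.05, and 0 were called, where 0.0517% of all genes were.

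**Figure D4:**
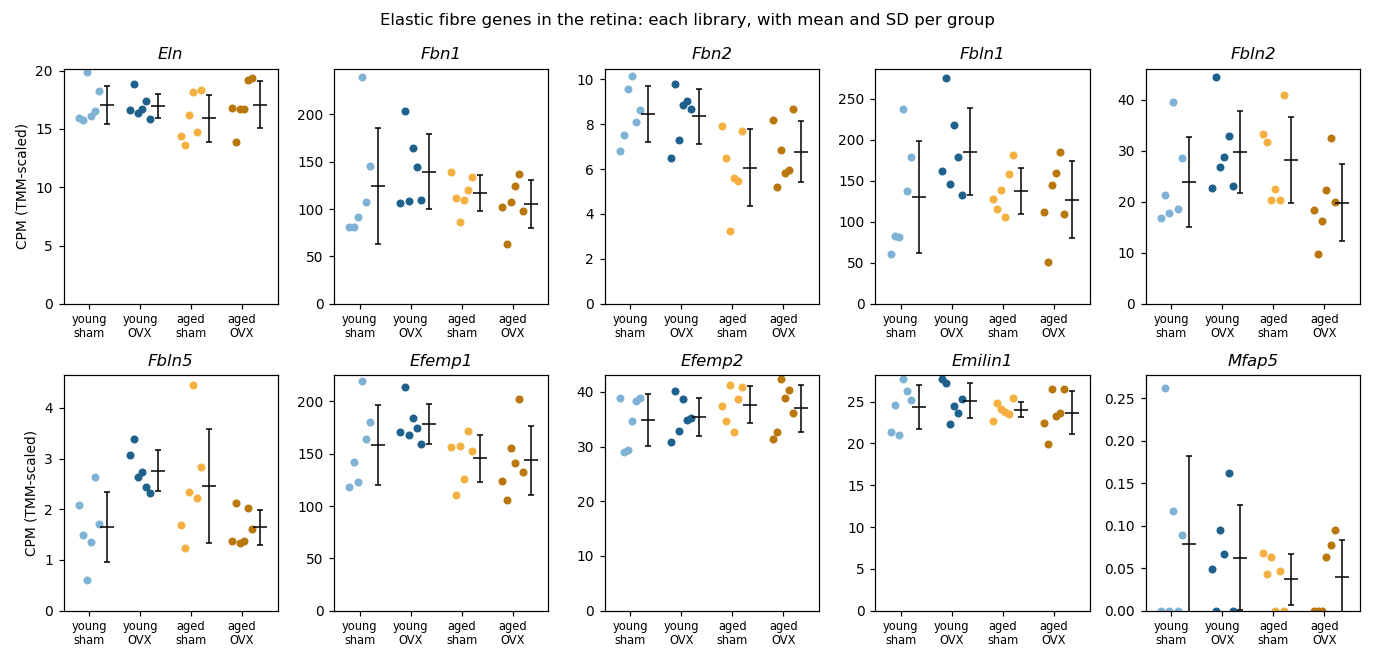
Each point is the level of a gene in 1 retina library (CPM on TMM-scaled totals, axes from 0), with the mean and SD of each group of 6 beside it. The 12 aged retinas sit between 3.23 and 8.66 CPM for Fbn2 against 6.50 to 10.1 CPM for the young, and Mfap5 stays at or under 0.26 CPM in all 24.

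Pairs of elastic fibre genes were also compared between animals within groups. For each gene the group mean was subtracted from the log2 CPM of the 24 libraries of a tissue, and pairs were compared by Pearson's r and Spearman's rho with 100000 permutations within groups. In the posterior eye 42 of 45 pairs had a positive r, with a median of 0.41, and in 14 the permutation p of r, adjusted over the 45, was under 0.05, 8 of them by rho as well. In the retina 32 of 36 pairs were positive, with a median of 0.33, and 10 passed by r, 8 of them by rho as well. Libraries share their mixture of cells and their depth, which such correlations carry.

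By r, the highest posterior eye value was that of Fbln1 and Efemp1, the genes of fibulin-1 and fibulin-3, with r = 0.87 and rho = 0.76 (adjusted permutation p 0.00045 and 0.00225). Without the 2 libraries farthest from the median of Fbln1, r was 0.69. By rho, the highest was that of Fbn1 and Fbln1, with rho = 0.81 and r = 0.74 (adjusted permutation p 0.00045 for both), and r = 0.77 without 2 libraries. Fbln5 and Efemp2, whose fibulins bring the crosslinking enzymes to tropoelastin, had r = 0.82 and rho = 0.77 (adjusted permutation p 0.00045 and 0.00225), and r = 0.72 without 2 libraries. Fbln2 and Mfap5 had r = 0.77 and rho = 0.75 (adjusted permutation p 0.00203 and 0.00225), and r = 0.67 without 2 libraries. Eln went with Emilin1 (r = 0.59, rho = 0.52), Fbln5 (r = 0.59, rho = 0.45) and Mfap5 (r = 0.57, rho = 0.41), with adjusted permutation p of 0.0309, 0.0457 and 0.0384 for r and 0.0597, 0.112 and 0.174 for rho. By rank, then, none of the Eln pairs named passed. Eln had r = 0.18 with Fbn1 and 0.19 with Fbn2.

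In the retina the pairs with the highest r were Fbn1 and Fbln1 (r = 0.89, rho = 0.87), Fbln1 and Efemp1 (r = 0.89, rho = 0.88) and Fbn1 and Fbln2 (r = 0.86, rho = 0.85). Their adjusted permutation p was 0.00012 for r and at most 0.00024 for rho, and r without 2 libraries was 0.84, 0.85 and 0.79. All 6 pairs among these 4 genes, chosen after their values were seen, had an adjusted permutation p of r under 0.05. By rho, 5 of the 6 did, and Fbln2 with Efemp1 had 0.0759. The r of Fbln5 with the other 8 genes lay between -0.30 and 0.28 and none passed, and none of the Eln pairs passed either.

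**Figure D5:**
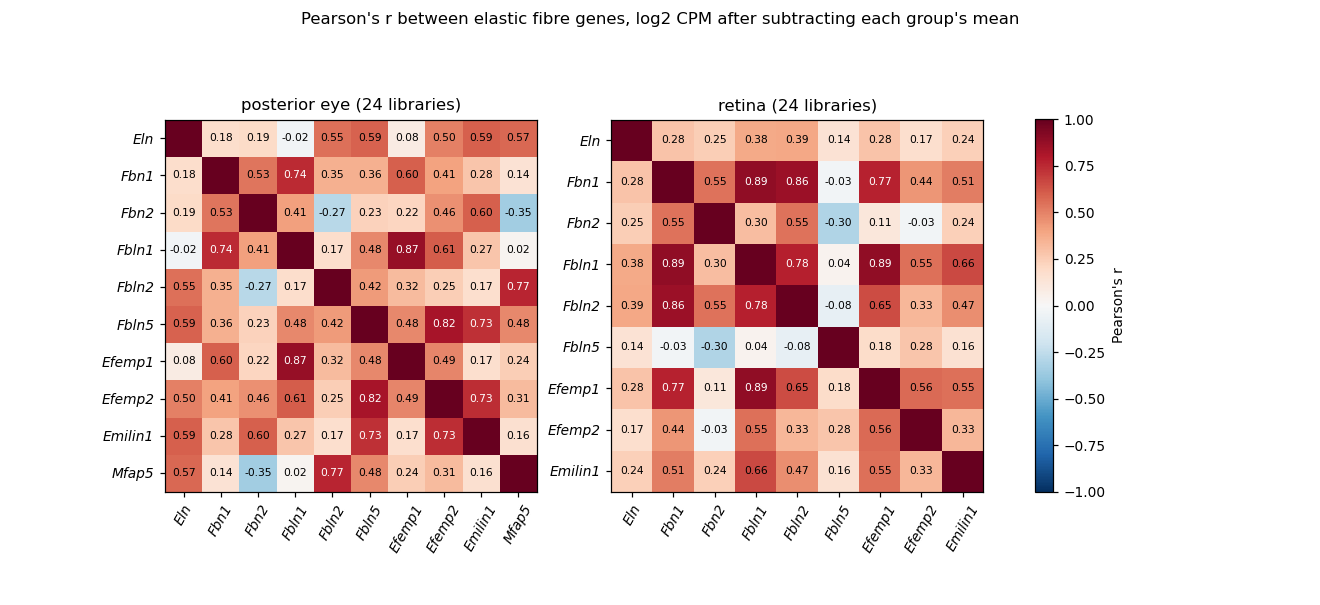
Each square holds Pearson's r between 2 elastic fibre genes over 24 libraries, from log2 CPM after subtracting each group's mean, with the posterior eye on the left and the retina on the right. The highest value off the diagonal is that of Fbln1 with Efemp1 (0.87) on the left, and 0.89 on the right, for Fbln1 with Fbn1 and with Efemp1.

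The same within-group values were set against the mean log2 level of 12 lists of cell markers. In the posterior eye 19 of 120 comparisons had an adjusted permutation p of r under 0.05, 13 of them by rho as well, and in the retina 0 of 108. Efemp2 and Fbln1 went with the melanocyte markers, at r = 0.80 and r = 0.78 (rho = 0.79 and 0.67, adjusted permutation p of r 0.0024 and 0.0118), and without 2 libraries r was 0.71 and 0.61. Fbln5 and Eln went with the fibroblast markers, at r = 0.71 and r = 0.63 (rho = 0.68 and 0.61, adjusted permutation p of r 0.0118 and 0.0193), and without 2 libraries r was 0.71 and 0.59. Eln with the lens markers had r = 0.62 (adjusted permutation p 0.0321, rho = 0.53 with 0.0694), and with the smooth muscle and pericyte markers r = 0.21 (adjusted permutation p 0.675). Mfap5 went with the adipocyte markers (r = 0.69, adjusted permutation p 0.0171, rho = 0.59 with 0.0566) and Emilin1 with the pigment epithelium markers (r = 0.70, adjusted permutation p 0.0125, rho = 0.59 with 0.0694). Efemp1 went against the rod markers (r = -0.59, rho = -0.65, adjusted permutation p 0.0171 and 0.0146), and r was -0.57 without 2 libraries.

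As a description without a test, the genes named for each member come from the 3 with the highest r over its 24 within-group values, among named genes at 5 CPM or more. In the posterior eye Eln was most like Nid1 (r = 0.83), the basement membrane protein nidogen, Ubtd2 (0.80) and Lamb2 (0.80), a laminin chain. Fbn1 was most like Sned1 (0.85), Ltbp1 (0.82), a TGF-beta binding protein of the fibrillin family, and Acss3 (0.81). Fbln5 was most like Mxra8 (0.92), Itgb5 (0.91), an integrin chain, and Loxl1 (0.89), a lysyl oxidase that fibulin-5 is known to bind.

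The nearest genes of Fbln1 were Cldn19 and Enpp2, both at 0.95, those of Efemp2 were Rcn3 (0.94), Il11ra1 (0.93) and Emp3 (0.93), and those of Emilin1 were Adgra2 (0.90), Psap (0.89) and Col8a2 (0.88), a collagen of Descemet's and other membranes. Mfap5 was most like Scara5 (0.92), C1qb (0.91) and Fcmr (0.91), and Efemp1 most like Sardh (0.90), Cobll1 (0.89) and Rin2 (0.89). Lower values led for Fbln2, with Cercam (0.82), Ddr2 (0.80), a collagen receptor, and Ackr3 (0.79), and for Fbn2, with Pcnx1 (0.84), Dgkg (0.83) and Tenm3 (0.82).

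Retina neighbours were other genes except for Sned1, which was again among those of Fbn1 (0.96), with F5 (0.96) and Gja1 (0.95), a gap junction protein. Fbln1 was most like Sod3, Slc6a13 and Optc, all at 0.97, and Efemp1 most like Cpq (0.96), Atp1b3 (0.94) and Tsc22d1 (0.94). Fbln2 had Syt15 (0.88), Fam84a (0.88) and Wfdc1 (0.87), and Fbn2 had Ppm1f (0.84), Nlgn1 (0.82) and Cgn (0.80). Fbln5 had Ptgds (0.69) and Rdh5 (0.69), the latter one of the pigment epithelium markers. For Eln the highest retina value was 0.72, for Sec11a, for Efemp2 0.82, for Sav1, and for Emilin1 0.77, for Bdh2.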

How the data were processed

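Each of 24 animals gave 1 posterior eye and 1 retina library. Per the labels' protocols, low-input full-length cDNA was made with a SMART-Seq kit, tagmented with Nextera XT and sequenced in pairs, without a step that keeps the strand, and reads from genes that overlap or lie antisense cannot be told apart. The deposited values are raw counts per gene, 1 table per tissue. The submitters' processing notes name STAR 2.7.3a, HTSeq, DESeq2 and the build Rnor_6.0, with no counting options stated there. Groups come from the labels. Whole-number counts were used as deposited by the authors, and no libraries were identical.

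Counts were fitted per tissue with edgeR 4.0.16 in R 4.3.3 (TMM scaling, filterByExpr, 1 mean per group of 6, 24 libraries), leaving 16401 posterior eye genes and 15481 retina genes. The quasi-likelihood test gave p-values, adjusted by the Benjamini-Hochberg method over all genes of a contrast, with a threshold of 0.05 and 7 contrasts per tissue. The SE of a log2 fold change is its size over the square root of F. A fit over 48 libraries gave tissue contrasts. Symbols turned into dates by a spreadsheet affected 25 genes of the posterior eye table. The members, marker lists and other lists were chosen with earlier results of these data known. All 10 members are named. Other elastic fibre genes are named where called, apart from Lox and Loxl2, and likeness takes the 3 genes of highest r, of which 1 item is not reported here. Log2 CPM for correlations used a prior count of 2.

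Alternatives were RLE scaling, no low-count filter, limma 3.58.1 voom, DESeq2 1.42.0, fits of the groups compared alone, marker levels as covariates and leaving out each library. The lens and smooth muscle covariates and the contrast of age effects between tissues were chosen after seeing the data. The labels tie both tissues to 1 animal, and deviations from group means in the tissues of 1 animal had a median correlation of 0.0696 (range -0.0409 to 0.283), highest with the own animal in 7 of 24. Within a tissue animals are separate, so p-values measure spread between animals. The fit over 48 libraries took both libraries of an animal as separate, except where the animal was a block.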

Additional observations from a re-analysis of the deposited data

How the results depend on the processing

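The count of elastic fibre genes called with age in the posterior eye, 1, was 0 with the fibroblast, pigment epithelium or lens marker level as a covariate, and 0 to 1 when each library was left out. DESeq2 called 1 elastic fibre gene with age in posterior eyes of sham animals and 1 with age in the retina, where edgeR called 0. The Eln value for OVX in aged posterior eyes turned to -0.024 with the pigment epithelium level and ran from -0.029 to 0.089 without 1 library, reversing in 5 of 24 fits. With the pigment epithelium level, the Fbln5 retina values turned to 0.30 for OVX in aged animals, 0.10 for the interaction and 0.15 for aged minus young within OVX. The causes were not tested. Of the single-gene values, 383 kept direction and side of the threshold, 9 lost the call, 4 gained it, and 141 counts stayed as they were. With the animal as a replicate block, the pairing of tissues left all 10 tissue calls in place (Eln 1.99, Fbn2 -0.31) and changed no other call of an elastic fibre gene. Over all genes, the 8 called with age in the posterior eye were 94 with DESeq2, 3 with voom, 1 with the pigment epithelium level and 0 with the fibroblast or lens level, and the 114 in the retina were 259 with DESeq2, 69 with no filter, 24, 32 and 13 with the fibroblast, smooth muscle and lens levels. DESeq2 also called more genes for OVX in posterior eyes of young (10 against 1) and aged animals (27 against 0) and over both ages (67 against 0), for age within sham (5 against 0) and OVX (93 against 0), and in the retina 63 against 3, 9 against 1 and 48 against 8 for OVX, 68 against 6 and 67 against 11 for age within sham and OVX and 22 against 7 for the interaction. The 6 genes whose age effect differed between tissues were 1 with the block and 0 with voom. Depth limits Fbln5 in the retina, at 11 to 83 counts per library, and Mfap5, at 0 to 6.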
